A study of Saccharomyces cerevisiae with 12 samples.

Results

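The genes described here encode the cytosolic and mitochondrial aminoacyl-tRNA synthetases of *Saccharomyces cerevisiae*, with the cytosolic cofactor gene *ARC1* and the glycyl enzyme paralog *GRS2*. They were chosen by gene name, and all 36 were found among the 7130 genes listed: 21 genes for cytosolic enzymes, 13 for mitochondrial enzymes, *ARC1* and *GRS2*. RNA sequencing was carried out on 12 samples, 3 cultures for each of 4 conditions. The tetO-*GLN4* strain was grown with 1 μg/ml doxycycline or without it, and so was the wild type. By their labels both strains are haploid BY4742 (MAT alpha *his3D1 leu2D0 lys2D0 ura3D0*), and tetO-*GLN4* (strain McFY2) also carries PGLN4::KanMX4-tTA-tetO7, a cassette in place of the *GLN4* promoter from which doxycycline represses transcription. The cultures were grown in YEPD at 30 °C, overnight in the drug, and taken in mid-log phase. Markers of mating type go against the MAT alpha label in tetO-*GLN4* with doxycycline, where the summed level of 4 alpha-specific genes was 297 FPKM, against 18668 FPKM in tetO-*GLN4* without it. With 1 pooled value per condition, no result could be computed without the cultures concerned. A single integrant strain stands for the depletion, and cultures short of Gln4p grow more slowly, so the effects of growth rate and of glutamine tRNA charging on these mRNAs cannot be told apart.

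An aminoacyl-tRNA synthetase joins one amino acid to its tRNAs. Yeast makes a nuclear-encoded set for the cytosol and a second, largely separate set that is imported into mitochondria, while a few genes give enzymes to both compartments. Uncharged tRNA activates the kinase Gcn2, which raises translation of the transcription factor Gcn4, and Gcn4 binds promoter sites with the core TGACTC.

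The core was searched for on both strands of the 500 bases upstream of each coding start in the R64 genome (RefSeq). It was present for 10 of the 21 cytosolic genes (47.6%), for 2 of the 13 mitochondrial genes (*SLM5* and *MSW1*) and for *ARC1*, against 12.6% of 6025 windows of all coding genes. The longer form TGACTCA, which contains the core, was present in 4% of those windows and upstream of *DED81*, *YHR020W* and *YDR341C* among the members. The matches of 7 of these 13 genes are shown on the strand of the gene, with the core or its reverse complement GAGTCA in capitals. They belong to the 3 cytosolic genes with a core that fell with doxycycline in tetO-*GLN4* (*THS1*, *SES1*, *YNL247W*), to the mitochondrial gene that rose (*SLM5*), to the cytosolic genes with the highest ratios (*YHR020W*, *KRS1*), and to the remaining gene with the longer form (*YDR341C*). The other matches, of *ALA1*, *ILS1*, *VAS1*, *MSW1* and *ARC1*, are not shown. The match of *ARC1* begins 6 bases upstream of its start codon and so ends directly before it.
THS1, chrIX:212283-212312, + strand: ttactgtttaaaTGACTCttaccttgtgat
SES1, chrIV:489112-489141, + strand: acaatacgtatcGAGTCAaaaatacactga
YNL247W, chrXIV:182777-182806, + strand: tttcatcgcgaaGAGTCAaaagacattatc
SLM5, chrIII:162552-162581, - strand: aagtctggctgaTGACTCctcatgataact
KRS1, chrIV:525294-525323, + strand: tgaatgatgaaaTGACTCttaatgaacttc
YHR020W, chrVIII:143802-143831, + strand: taagcgatgcttGAGTCActgaatgtcttg
YDR341C, chrIV:1153809-1153838, - strand: aaagtgtctaatGAGTCAgttatttctttc
*DED81* and *YHR020W* are divergent neighbours. Their coding starts lie on either side of a 437-base intergenic region (chrVIII:143559-143995), and the site printed for *YHR020W* is the one found for *DED81*, 182 bases upstream of *YHR020W* and 261 bases upstream of *DED81*. A match describes the letters of the window and says nothing of binding.

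Each measurement is 1 FPKM (fragments per kilobase of gene, scaled to the mapped fragments of the library) per gene and condition, in which the authors combined the 3 cultures, with a 95% confidence interval. No value per culture was analysed, so no spread between cultures is given, and the depth of the libraries is unknown. A gene was called changed where the intervals of the 2 conditions of a strain lay apart. The SDs given with log2 ratios come from the same intervals. The labels were first checked on the repressed gene. *GLN4*, for the cytosolic glutaminyl enzyme (chrXV:649303-651732, + strand), was at 30.5 FPKM (interval 24.1 to 36.9) in tetO-*GLN4* with doxycycline and has no value in tetO-*GLN4* without it, where Cuffdiff gave the status HIDATA (too many fragments). In the wild type it was at 199.2 FPKM (158 to 241) with doxycycline and 199.3 FPKM (157 to 241) without. In tetO-*GLN4* with doxycycline it stood at 9.36% of the median of the other 20 cytosolic genes, against 54.7% in the wild type with doxycycline and 55.9% without. It was the lowest of the 21 in the repressed cultures, where the next gene, *YNL247W*, was 4.51-fold higher, and the second lowest in both wild type conditions, above *CDC60*. The files give *GLN4* one locus with *YOR169C*, so reads of the overlap could fall to either gene.

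**Figure D1:**
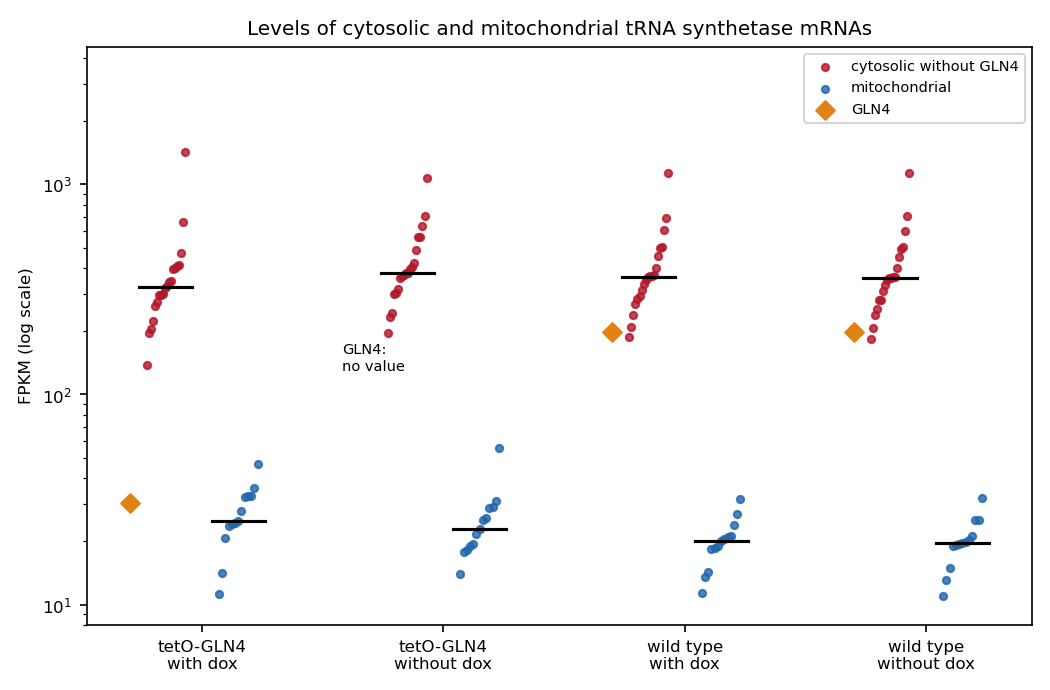
Level of each cytosolic enzyme mRNA (red), mitochondrial enzyme mRNA (blue) and *GLN4* (orange diamond) in the 4 conditions, as FPKM on a log axis, with 1 pooled value per gene and a black line at each group's median. *GLN4* is at 30.5 FPKM in tetO-*GLN4* with doxycycline, among the mitochondrial enzymes, and near 199.2 FPKM in the wild type; the strains were normalized separately.

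The 2 sets differed in level in every condition. The lowest cytosolic mRNA other than *GLN4* was above the highest mitochondrial one, with 137.6 FPKM (*YNL247W*) against 46.4 FPKM (*MSK1*) in tetO-*GLN4* with doxycycline, 196.3 (*CDC60*) against 55.5 (*MSK1*) in tetO-*GLN4* without, 187.3 (*CDC60*) against 31.9 (*MSK1*) in the wild type with doxycycline, and 184.0 (*CDC60*) against 32.0 (*MSK1*) in the wild type without. The median cytosolic level without *GLN4* was 326 FPKM and the median mitochondrial level 25.1 FPKM in tetO-*GLN4* with doxycycline, a 13.0-fold gap. Without doxycycline the gap in tetO-*GLN4* was 16.5-fold, and in the wild type it was 18.1-fold both with and without the drug. These gaps lie within a condition and do not depend on how conditions are scaled. The gap has no replicate check.

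Among the cytosolic genes, *KRS1*, for the lysyl enzyme, was highest in each condition. Its level was 1419 FPKM in tetO-*GLN4* with doxycycline, 1075 in tetO-*GLN4* without, 1133 in the wild type with doxycycline and 1134 in the wild type without. Its interval lay above that of the next gene except in tetO-*GLN4* without doxycycline, where it overlapped that of *SES1*. Of all neighbours in the order of the 21 genes, the only others apart were *YNL247W* and *GLN4* in tetO-*GLN4* with doxycycline. Ranks moved within tetO-*GLN4*. *YHR020W* (prolyl enzyme) was the 3rd highest with doxycycline and the 15th without, and *DPS1* (aspartyl enzyme) the 4th with and the 14th without, while *SES1* was the 7th with and the 2nd without, *THS1* the 14th with and the 5th without, and *WRS1* (tryptophanyl enzyme) the 16th with and the 8th without. In the wild type *YHR020W* was the 15th, *SES1* the 2nd and *THS1* the 4th in both conditions. A rank can move with no change called in the gene itself. The tetO-*GLN4* intervals of *YHR020W*, *DPS1* and *WRS1* with and without doxycycline overlapped.

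Doxycycline in tetO-*GLN4* lowered 4 cytosolic mRNAs and raised none, and raised 1 mitochondrial mRNA and lowered none, among 35 members with a ratio. With ratios centred on the FPKM-weighted mean of all genes, however, 0 were lower and 7 cytosolic and 8 mitochondrial genes were higher. That centring moves all genes up by one amount, and the share of all genes called under it was not computed. None of the 35 members with a ratio changed 2-fold, as 10.1% of all genes did downwards and 10.5% upwards. The 4 that fell encode the threonyl, seryl, cysteinyl and glycyl enzymes, and the one that rose encodes the mitochondrial asparaginyl enzyme. These are 20% of the 20 cytosolic genes and 7.69% of the 13 mitochondrial ones, beside 16.1% of all 6553 genes tested that were lower and 15% that were higher (31.1% in all). Of genes in the cytosolic range of levels in untreated tetO-*GLN4* (196 to 1075 FPKM) 31.4% were lower and 6.8% higher, and of those in the mitochondrial range (14.1 to 55.5 FPKM) 7.5% were lower and 17.4% higher, so neither share was above that of genes at like levels. Ratios were below 0 for 13 of the 20 cytosolic genes and 6 of the 13 mitochondrial ones, beside 49.6% of all genes below 0 and 50.4% above. The cytosolic median log2 ratio was -0.29 and became 0.38 when centred on that weighted mean, which was -0.67, or 0.34 when each FPKM was taken as a share of the summed FPKM. The median over all genes was 0.01, and over genes in the cytosolic range -0.39.

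*THS1* (threonyl enzyme, chrIX:212499-214703, + strand) was at 297 FPKM (227 to 367) in tetO-*GLN4* with doxycycline and at 562 FPKM (431 to 693) without, a log2 ratio of -0.92 (SD 0.24). In the wild type it was at 501 FPKM (393 to 609) with the drug and 503 FPKM (395 to 612) without. The treated tetO-*GLN4* value lay below the intervals of all 3 other conditions. *SES1* (seryl enzyme, chrIV:489508-490896, + strand) was at 396 FPKM (303 to 488) with doxycycline and 707 FPKM (540 to 873) without, a ratio of -0.84 (SD 0.24). The wild type had 689 FPKM (543 to 835) with the drug and 708 FPKM (556 to 860) without.

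The cysteinyl enzyme gene *YNL247W* (chrXIV:182875-185178, + strand), which serves both compartments, was at 138 FPKM (106 to 169) with doxycycline and 233 FPKM (179 to 288) without, a log2 ratio of -0.76 (SD 0.24). Wild type cultures had 209.6 FPKM (167 to 252) with the drug and 207.4 FPKM (166 to 249) without. *GRS1* (glycyl enzyme of both compartments, chrII:481364-483367, - strand) was at 346 FPKM (265 to 428) with doxycycline and 564 FPKM (432 to 696) without, a ratio of -0.70 (SD 0.24). The wild type had 500.1 FPKM (394 to 607) with the drug and 494 FPKM (389 to 599) without. For both, the tetO-*GLN4* interval with the drug ended only a little below the start of the one without. *GRS1* shares its locus in the files with another gene, and it is a paralog of *GRS2*, so its count is less certain. Leaving out the 6 enzymes of both compartments left 2 cytosolic genes lower, *THS1* and *SES1*.

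The intervals of the other 16 cytosolic genes with a ratio overlapped. *FRS2* and *WRS1* had log2 ratios of -0.63 each, *FRS1* -0.49, *MES1* -0.43, *GUS1* -0.35, *VAS1* -0.30, *TYS1* -0.28, *HTS1* -0.20 and *ILS1* -0.09. Those above 0 were *YHR020W* at 0.56, *KRS1* at 0.40, *DPS1* at 0.22, *ALA1* at 0.17, *YDR341C* (arginyl enzyme) at 0.14, *CDC60* (leucyl enzyme) at 0.07 and *DED81* (asparaginyl enzyme) at 0.05. By a z test of each ratio on its SD, with Benjamini-Hochberg adjustment over all genes, 6 cytosolic genes were lower, *FRS2* and *WRS1* in addition, and *YHR020W* was higher, beside 20.1% of all genes lower and 18.9% higher. The same 6 were at least 1.5-fold lower, beside 20.5% of all genes. The SD across the 20 genes was 0.43, against 0.24 for the median SD of a single ratio. Over all genes tested the SD was 0.95, against 0.22 for a single ratio, so the cytosolic ratios spread less than those of all genes, which cover all levels. The spread of genes in the cytosolic range of levels was not computed.

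**Figure D2:**
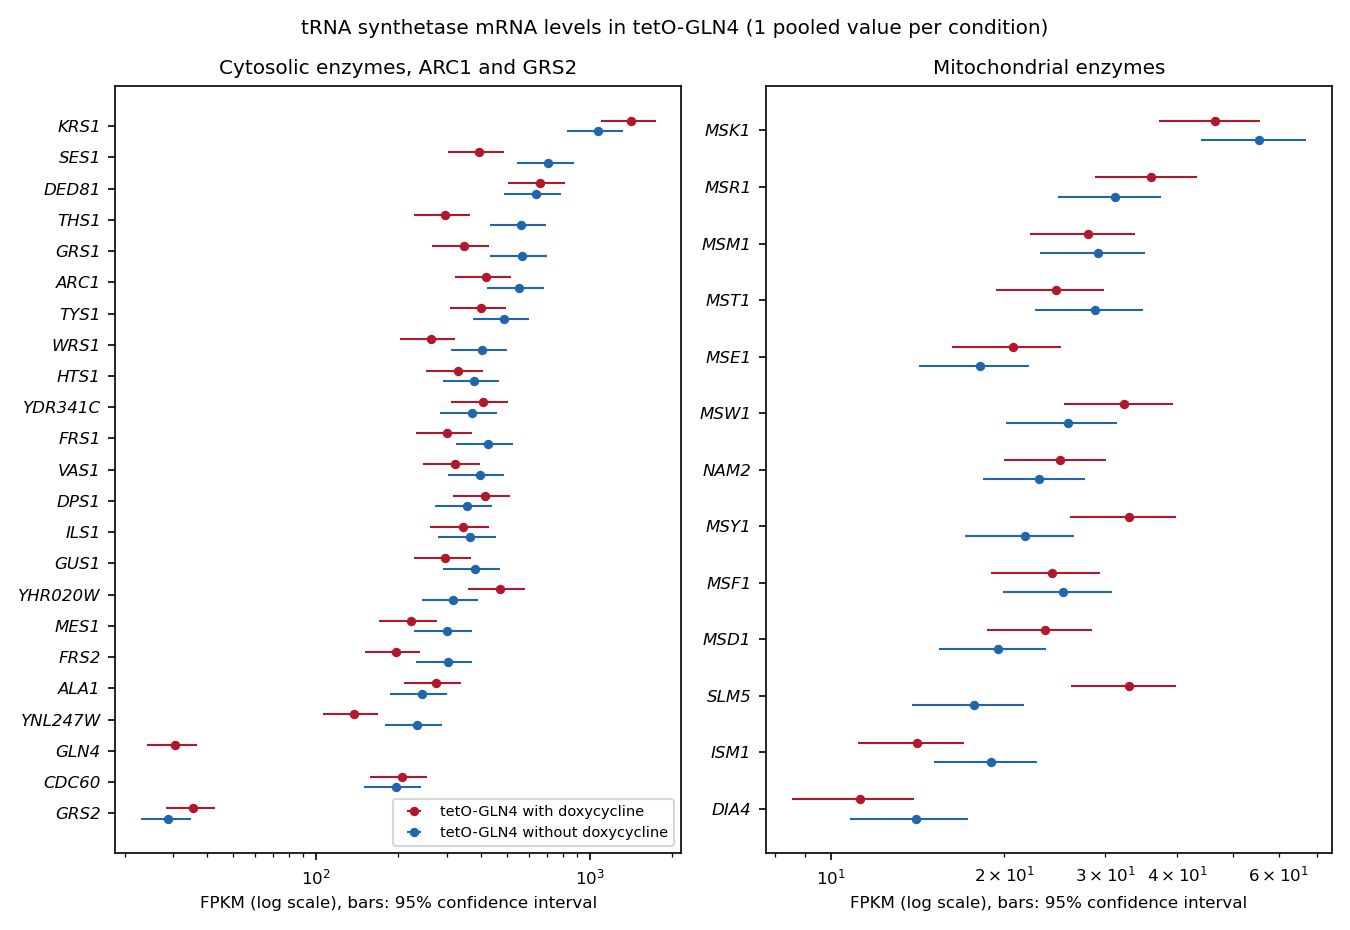
FPKM of each member in tetO-*GLN4* with doxycycline (red, upper) and without (blue, lower), on log axes with 95% confidence intervals, genes ordered by level in the untreated wild type. The intervals lie apart for *THS1*, *SES1*, *YNL247W*, *GRS1* and *SLM5*; *GLN4* has no untreated value.

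Several members act together. Arc1 holds the methionyl and glutamyl enzymes in one complex. *ARC1* was at 419 FPKM (322 to 517) in tetO-*GLN4* with doxycycline and 550 FPKM (422 to 679) without, a log2 ratio of -0.39, and at 455 FPKM (363 to 546) and 456 FPKM (364 to 547) in the wild type with and without the drug. The intervals overlapped in both strains. The ratios of *ARC1*, *MES1* and *GUS1* in tetO-*GLN4* lay within 0.07 of each other, while the difference of *ARC1* and *MES1* had an SD of 0.34. All genes in the cytosolic range of levels, where these genes lie, had a median of -0.39. The closeness of these ratios therefore does not set the complex apart from genes at like levels. The subunit genes of the phenylalanyl enzyme, *FRS1* and *FRS2*, differed by 0.14 (SD 0.33), less than the error.

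The glycyl paralogs did not have like ratios. *GRS2* was at 35.5 FPKM (28.4 to 42.7) with doxycycline and 28.9 FPKM (23.0 to 34.8) without in tetO-*GLN4*, a log2 ratio of 0.30 with overlapping intervals. In the wild type it was at 22.0 FPKM (17.3 to 26.7) with the drug and 22.2 FPKM (17.5 to 26.8) without. *GRS1* exceeded *GRS2* 9.75-fold in tetO-*GLN4* with doxycycline, 19.5-fold without, 22.7-fold in the wild type with doxycycline and 22.3-fold without. The log2 ratios of -0.70 for *GRS1* and 0.30 for *GRS2* lay further apart than the error of their difference (SD 0.32), which no scaling of the conditions moves. *GRS1* lies in the cytosolic range of levels, where all genes had a median of -0.39. *GRS2* lies in the mitochondrial range, where the median was 0.16. These medians differ in the same direction, so part of the gap between the paralogs is shared with genes at like levels.

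Of the mitochondrial enzymes, only *SLM5* (asparaginyl enzyme, chrIII:160744-162222, - strand) had intervals apart. It was at 33.0 FPKM (26.1 to 39.8) in tetO-*GLN4* with doxycycline and 17.7 FPKM (13.8 to 21.7) without, a log2 ratio of 0.89 (SD 0.22), and at 14.4 FPKM (11.1 to 17.6) and 14.9 FPKM (11.6 to 18.3) in the wild type with and without the drug. The treated tetO-*GLN4* value was above the other 3. *MSY1* (tyrosyl enzyme) had a ratio of 0.60 with intervals that overlapped slightly, and was higher by the z test. It and *SLM5* were at least 1.5-fold higher, beside 20.2% of all genes. *MSW1* was at 0.33, *MSD1* at 0.27, *MSR1* at 0.21, *MSE1* at 0.19 and *NAM2* at 0.12. Below 0 were *MSM1* at -0.06, *MSF1* at -0.07, *MST1* at -0.23, *MSK1* at -0.26, *DIA4* (seryl enzyme) at -0.32 and *ISM1* (isoleucyl enzyme) at -0.43. The mitochondrial median was 0.12, against 0.16 for all genes in the same range of levels, and it was 0.80 when centred on the FPKM-weighted mean.

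In the wild type no member had intervals apart, beside 0.152% of 6560 genes (0.061% lower and 0.0915% higher). By the adjusted z test 0 members passed too, beside 0.0457% of genes lower and 0.061% higher. All 36 log2 ratios lay between -0.10 and 0.09, while a single ratio had an SD of 0.20 to 0.24. Their SD across genes was 0.04, against a median SD of 0.21 for a single ratio. The intervals of these genes were thus wider than the scatter seen. Overlapping intervals, or a z test not passed, therefore do not show that a member was unchanged. The medians were 0.01 over the cytosolic genes and 0.00075 over the mitochondrial ones.

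**Figure D3:**
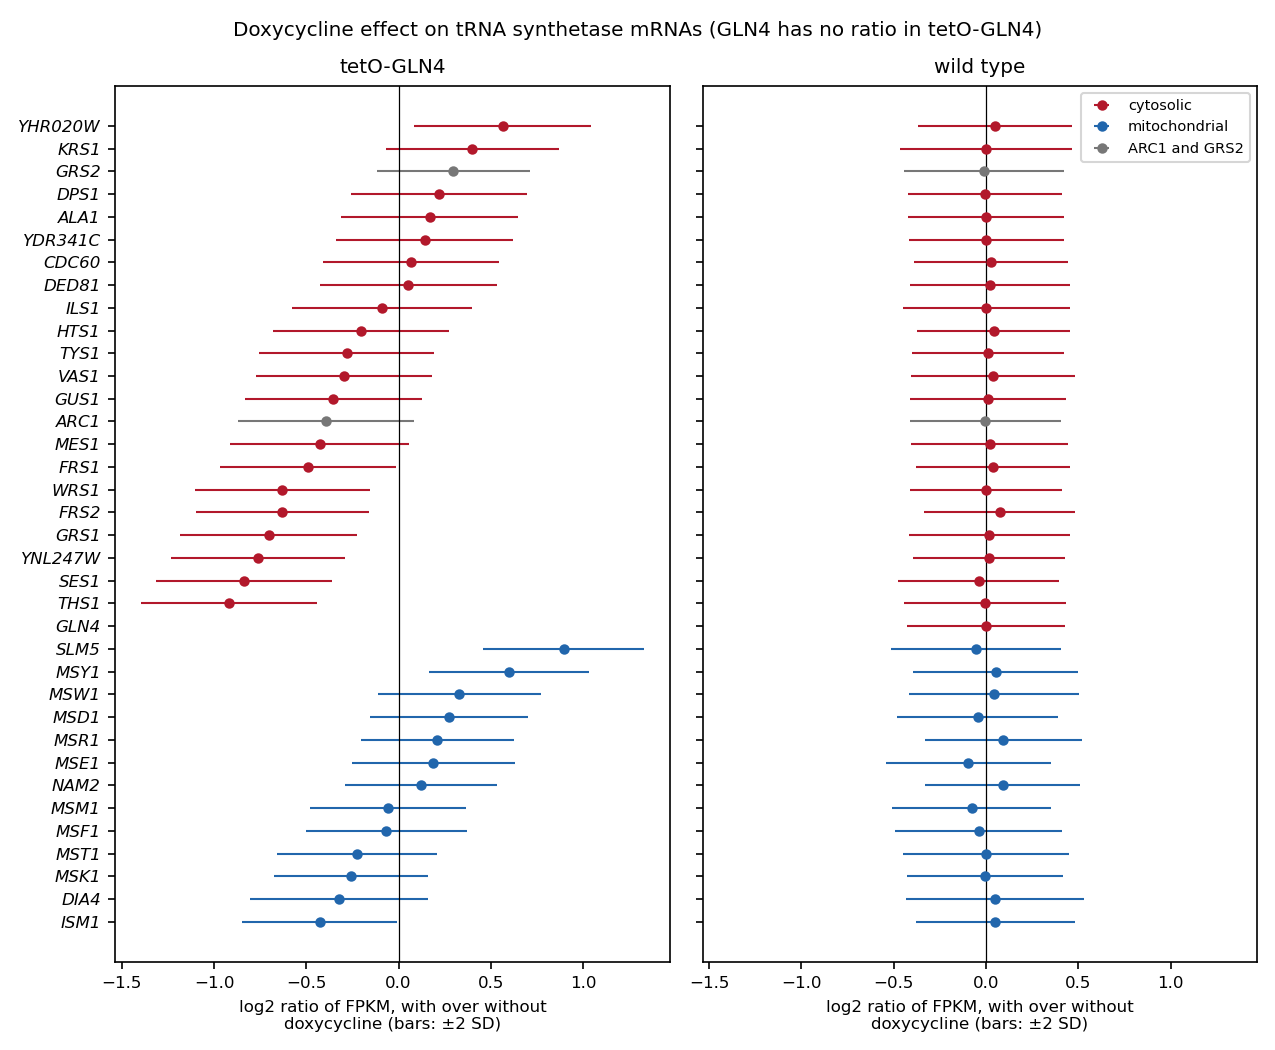
Log2 ratio of FPKM with over without doxycycline for each member in tetO-*GLN4* (left) and the wild type (right), with bars of 2 SDs on each side, in red for cytosolic enzymes, blue for mitochondrial enzymes and grey for *ARC1* and *GRS2*. Ratios run from -0.92 (*THS1*) to 0.89 (*SLM5*) in tetO-*GLN4* and from -0.10 to 0.09 in the wild type.

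The difference between the strains was then tested for each gene as the log2 ratio in tetO-*GLN4* minus that in the wild type, by a z test with adjustment over 6538 genes. It passed for *THS1* (-0.91, SD 0.32) and *SLM5* (0.95, SD 0.32) among 35 members, at an adjusted threshold of 0.05. Over all genes, 12.5% were lower and 11% higher. For *SES1* the difference was -0.80 (SD 0.32), for *YNL247W* -0.78 (SD 0.31) and for *GRS1* -0.72 (SD 0.32), none past the threshold. Their fall in tetO-*GLN4* was thus not shown to differ from the wild type, nor shown to be the same. With both ratios centred on the median of all genes, *YNL247W* passed as well.

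Enzymes for the same amino acid were compared across the 13 amino acids that have a gene in each set as listed here. Amino acids with no gene in the listed mitochondrial set, such as proline (*YHR020W*), were left out. That does not mean that mitochondria lack an enzyme for them. *AIM10*, given below among further genes for charging or handling tRNA, was not paired with any enzyme. The ratio of the mitochondrial gene was above that of the cytosolic gene for 11 of 13 in tetO-*GLN4*, with a median difference of 0.49, and for 7 of 13 in the wild type, with a median difference of 0.0069. The differences in tetO-*GLN4* were greatest for tryptophan (*MSW1* minus *WRS1*, 0.96, SD 0.32), tyrosine (*MSY1* minus *TYS1*, 0.88, SD 0.32) and asparagine (*SLM5* minus *DED81*, 0.84, SD 0.32). Lysine went the other way (*MSK1* minus *KRS1*, -0.66, SD 0.31), as did isoleucine (*ISM1* minus *ILS1*, -0.34, SD 0.32). For arginine, aspartate and leucine the difference was at most 0.07, below its SD of 0.32. All genes in the mitochondrial range of levels had a median of 0.16 and those in the cytosolic range -0.39, which differ in the same direction. As levels, *DED81* exceeded *SLM5* 20.0-fold in tetO-*GLN4* with doxycycline and 35.9-fold without, and *KRS1* exceeded *MSK1* 30.5-fold with and 19.4-fold without.

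**Figure D4:**
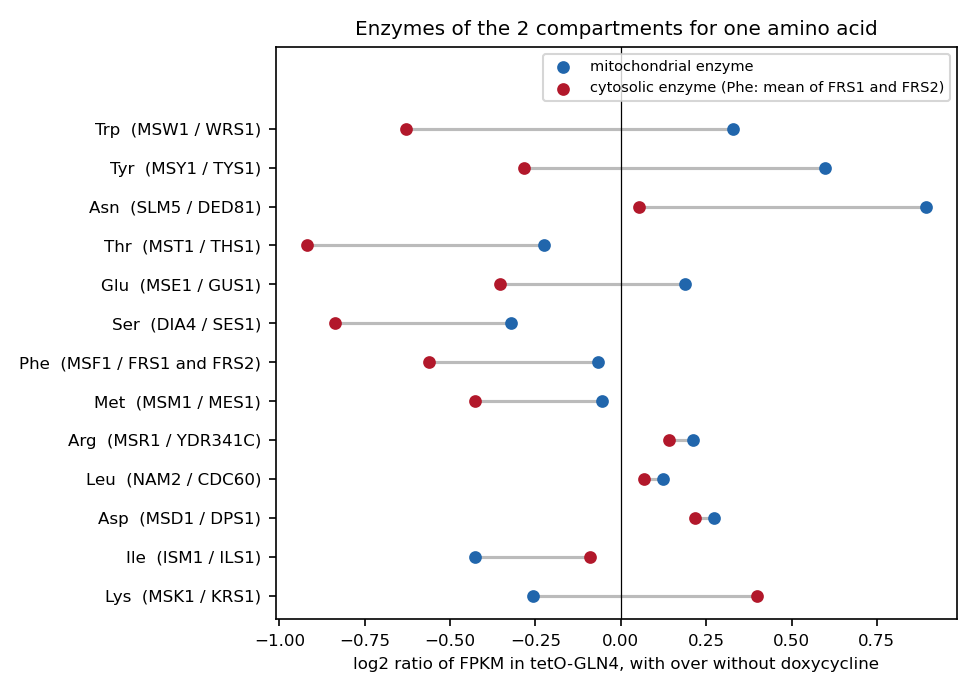
Log2 ratio of FPKM in tetO-*GLN4*, with over without doxycycline, for the mitochondrial (blue) and cytosolic (red) enzyme gene of each of 13 amino acids, sorted by the difference. The mitochondrial gene is to the right for 11 amino acids, and to the left for lysine and isoleucine.

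The ratio did not follow the presence of the Gcn4 core in a single direction. The 10 cytosolic genes with the core had a median log2 ratio of -0.02 in tetO-*GLN4*, with 5 above 0, and the 10 without it that have a ratio had a median of -0.39, with 2 above 0. The first of these sets held 3 of the 4 genes that fell and also *YHR020W* and *KRS1*. The divergent neighbours *YHR020W* and *DED81*, with a single core between them, had ratios of 0.56 and 0.05. *SLM5* and *MSW1*, the mitochondrial genes with the core, had ratios of 0.89 and 0.33.

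**Figure D5:**
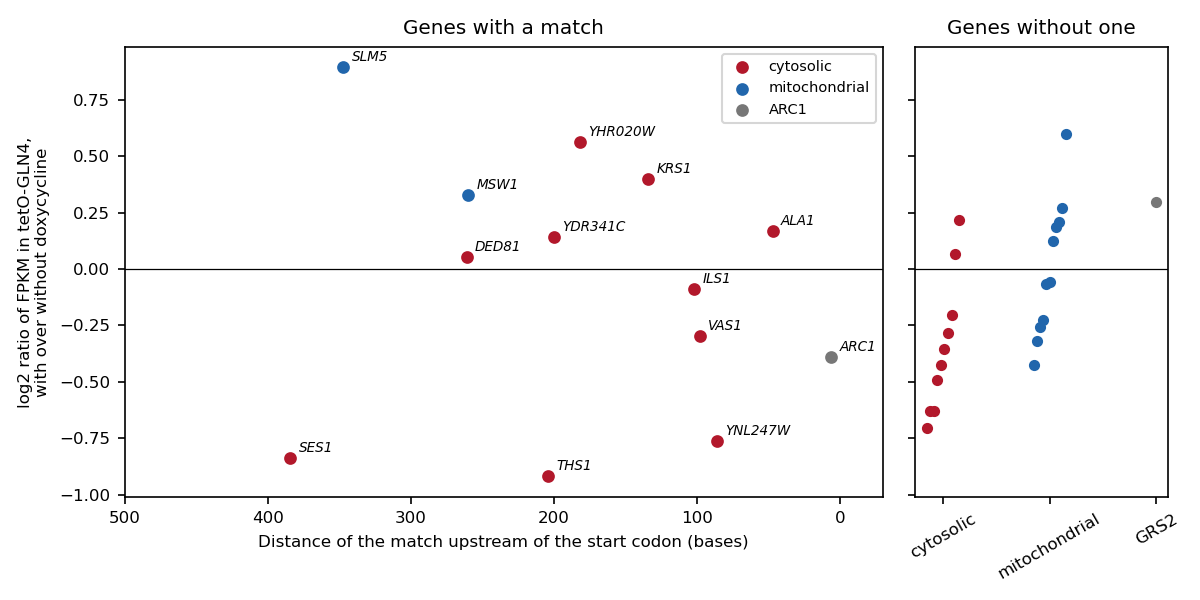
Log2 ratio of FPKM in tetO-*GLN4*, with over without doxycycline, against the distance in bases from the TGACTC match to the start codon (left), and the ratios of the members with no match (right). Genes with a match spread from -0.92 (*THS1*) to 0.89 (*SLM5*).

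Glutamine codons, which the depleted enzyme serves, made up a median of 3.68% of codons in the cytosolic genes, 4.47% in the mitochondrial genes and 3.68% in all 6027 coding genes. Among the members they ran from 2.24% (*ILS1*) to 5.09% (*WRS1*). *GLN4* itself has 2.72%, *THS1* 3.68% and *SLM5* 4.67%.

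Glutaminyl-tRNA in yeast mitochondria is made by a different route, in which the amidotransferase of *HER2*, *PET112* and *GTF1* converts a mischarged glutamyl-tRNA. *HER2* was at 35.4 FPKM (28.0 to 42.7) in tetO-*GLN4* with doxycycline and 22.9 FPKM (18.0 to 27.9) without, a rise of 0.63 on the log2 scale with intervals that barely parted. Its wild type level was 20.4 FPKM (15.9 to 24.9) both with and without the drug, and the difference between strains (0.62, SD 0.31) did not pass the threshold. *PET112* had a ratio of 0.46 and *GTF1* 0.33 with overlapping intervals. Of 10 further genes for charging or handling tRNA, listed here as partners, 1 rose (*HER2*) and 1 fell. This is 10% each way, beside 15% of all genes higher and 16.1% lower. The gene that fell was *DTD1*, for a D-aminoacyl-tRNA deacylase, which was at 64.4 FPKM (49.5 to 79.4) with doxycycline and 125 FPKM (98.0 to 151) without, a ratio of -0.95. *DTD1* in the wild type was at 149 FPKM (118 to 181) with the drug and 155 FPKM (122 to 189) without, and the difference between strains (-0.90, SD 0.31) passed the threshold. *CCA1* (0.53), *LOS1* (0.35), *PTH1* (0.04), *AIM10* (-0.14), *PTH2* (-0.19) and *FMT1* (-0.83, from under 6 FPKM) had overlapping intervals. None of the 10 has the Gcn4 core in its window.

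The mating-type markers that go against the label were these. All 4 alpha-specific genes fell in tetO-*GLN4*: the pheromone gene *MF(ALPHA)1* was at 191 FPKM with doxycycline and 11956 FPKM without, *MF(ALPHA)2* at 55.4 FPKM with and 4373 FPKM without, the a-factor receptor gene *STE3* at 11.5 FPKM with and 611 FPKM without, and the agglutinin gene *SAG1* at 39.5 FPKM with and 1728 FPKM without. The 4 in the wild type summed to 17035 FPKM with doxycycline and 18332 FPKM without. Of 7 a-specific genes 3 were higher in tetO-*GLN4* (*STE6*, *BAR1* and *ASG7*), beside 15% of all genes. The 7 summed to 281 FPKM with doxycycline and 158 without. Most of each sum was *MFA1* (141 FPKM with, 72.2 without) and *MFA2* (76.5 FPKM with, 56.6 without), whose intervals overlapped. Of 5 haploid-specific genes 3 were lower, beside 16.1% of all genes. *GPA1* was at 45.8 FPKM with doxycycline and 157.7 FPKM without, *STE4* at 51.8 FPKM with and 160.6 FPKM without, and *FUS3* at 76.7 FPKM with and 158.4 FPKM without. *STE18* (505 FPKM with, 336 without) and *STE5* (32.6 FPKM with, 30.8 without) had ratios above 0 with overlapping intervals. The list summed to 711 FPKM with and 843 FPKM without, and *STE18* made up most of the sum with doxycycline. None of the 16 was at 0 in any condition, and none had intervals apart in the wild type. The values of the treated tetO-*GLN4* cultures are therefore those of cultures whose markers depart from the labelled mating type, and the part of this in the values of the synthetase genes was not tested.

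Untreated cultures of the strains can be set side by side only as a description, since their tables were normalized separately. The median log2 difference of tetO-*GLN4* minus wild type was 0.15 over all genes, 0.10 over 20 cytosolic genes, of which 8 were above the all-gene median, and 0.30 over the mitochondrial genes, of which 11 of 13 were above it. The greatest was *MSK1*, with 55.5 FPKM (43.9 to 67.0) in untreated tetO-*GLN4* and 32.0 FPKM (25.4 to 38.7) in the untreated wild type.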

How the data were processed

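Per the labels and the study's methods, RNA from 12 yeast cultures was made into stranded mRNA libraries. The submitters' processing notes name TopHat 1.4.0, Cufflinks and Cuffdiff with sacCer3 (R64). The authors deposited 1 Cuffdiff FPKM per gene and condition with a 95% confidence interval, combining 3 cultures and scaling the conditions of a strain together; each strain has its own table. The deposited comparison tables hold the authors' fold changes, p-values and q-values and were not used. Low FPKM values did not fall on whole steps, so reads could not be recovered and depth is unknown; the median SD of an FPKM was 10.6% to 10.9%.

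Of 7130 genes, 6553 were tested in tetO-*GLN4* and 6560 in the wild type. The status HIDATA was treated as missing (7 and 4 genes), and genes at 0 in either condition (570 and 566) have no ratio. Log2 ratios were taken without a pseudocount, taking 2 SDs as the upper bound minus the FPKM. Genes whose intervals lay apart were called. The difference between strains was tested by a z test with Benjamini-Hochberg adjustment at 0.05 over 6538 genes. The SDs are Cuffdiff's, so every test here rests on its model of the spread between cultures. The steps were tested on simulated data with the interval width drawn in 2 ways. The z tests made more false calls among imprecise genes in one of them, and the bars for the simulation were reset, after a first failure, to genes as precise as the members (SD of 9.97% to 12.0%). The search for TGACTC used 500 bases upstream of each RefSeq coding start in the R64 genome, in Python 3.11.15 (scipy 1.17.1, numpy 2.4.6, pandas 2.3.3). Members and gene lists were chosen with earlier results of these data known. Named with full values are *GLN4*, *ARC1*, *GRS2*, members with intervals apart, and partners with intervals apart; *KRS1*, *MSK1* and the ranks were picked out once their values were known. Alternatives covered the pseudocount, scaling, low-value filters, the call rule, shared loci and enzymes of both compartments.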

Additional observations from a re-analysis of the deposited data

Results flagged for a closer look

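The effect of doxycycline differed between tetO-*GLN4* and the wild type, by the z test of the difference with Benjamini-Hochberg adjustment over all genes, for *THS1* (-0.91 on the log2 scale) and *SLM5* (0.95) among the synthetase genes and for *DTD1* (-0.90) among their partners. Of the mating-type markers it differed for *MF(ALPHA)1* (-5.87), *MF(ALPHA)2* (-6.16), *STE3* (-5.73), *SAG1* (-5.35), *STE6* (1.39), *BAR1* (1.43), *GPA1* (-1.76), *STE4* (-1.67) and *FUS3* (-1.12).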

How the results depend on the processing

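Of 116 values recomputed under an alternative, 97 kept their direction and stayed within the limits set for a change, 17 moved and 2 reversed. The low-value filters reached at most 10 FPKM, and the lowest member value was 10.9 FPKM, so values under those filters could not move. In the wild type, where ratios lay between -0.10 and 0.09, every count of genes stayed at 0. These unmoved values are no sign of stability. Centred on the FPKM-weighted mean, the cytosolic median in tetO-*GLN4* was 0.38, with 0 genes lower and 7 higher, and the mitochondrial median was 0.80 with 8 higher. As a share of summed FPKM, an alternative chosen after seeing the data, the cytosolic median was 0.34 and the mitochondrial 0.75, with 0 cytosolic genes lower, 6 cytosolic genes higher and 7 mitochondrial genes higher. These follow from the shift itself (-0.67 and -0.62), which moves all genes alike. The share of all genes called under either scaling was not computed. By the z test 1 cytosolic and 2 mitochondrial genes were higher, at 1.5-fold 2 mitochondrial genes were higher, and at 2-fold 0 cytosolic genes were lower and 0 mitochondrial genes higher. Without the enzymes of both compartments 2 cytosolic genes were lower. For the difference between strains, centring on the median gave 2 genes lower, and a difference of at least 1 gave 0 lower and 0 higher. No paired analysis was possible because the columns hold 1 pooled value per condition, and for the same reason no replicate could be left out. No mitochondrial gene shares a locus, so leaving such genes out could not be run for them.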
